A study of Mus musculus with 2 samples.

Results

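Transcripts of glucose breakdown and of the response to low oxygen were followed through 32 genes in single cells of the mouse second heart field. The genes were taken by name: 14 glycolytic enzymes, 6 genes of glucose and lactate handling, and 12 hypoxia-response genes. All 32 were among the 16388 genes present in the matrices of both stages, and all 32 had at least 50 counts over the 6 libraries compared between stages, as did 11013 genes in all. The embryos were wild type, with no transgene or treatment named. One sample was taken at embryonic day (E) 9.5, with 533 cells from anterior, middle and posterior second heart field. The other was taken at E10.5, with 967 cells from the outflow tract and from the anterior, middle and posterior second heart field. The labels describe the cells as Osr1+ without saying how they were selected or how many embryos were pooled, and each cell held at least 1 Osr1 count.

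Glycolysis converts glucose to pyruvate in the cytosol, and lactate dehydrogenase turns pyruvate into lactate, which monocarboxylate transporters carry across the membrane. Hypoxia-inducible factors are transcription factors that prolyl hydroxylases mark for destruction when oxygen is present. They bind hypoxia response elements and raise many genes of glycolysis, glucose uptake and vessel growth. Early mouse embryos rely on glycolysis, and oxidative metabolism grows in importance as the heart and circulation mature. The second heart field is the mesodermal progenitor population, next to the foregut endoderm, that lengthens the heart tube at both of its poles.

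The 7 libraries held 31 to 560 cells. Median depth per cell was 23028 to 31257 UMIs (unique molecules counted) in the E9.5 libraries, while in the E10.5 libraries it was 5263 to 6084. Library totals ran from 196599 UMIs in the outflow tract to 13650408 in E9.5 posterior. One barcode occurred in 2 libraries, E10.5 middle and posterior. The summed level of 8 second heart field markers lay between 272 and 811 CPM (a gene's UMIs per 1000000 UMIs of the library). Of these, Gata4, Hand2 and Tbx5 were at 0 in E10.5 anterior, Gata4 and Tbx5 in the outflow tract, and Tbx5 in E9.5 anterior. Cells with epithelial transcripts made up 68.5%, 34.4% and 13.2% of E9.5 anterior, middle and posterior, and 16.1%, 2.22%, 6.95% and 15.5% of the outflow tract and E10.5 anterior, middle and posterior. The cut that defines them is 2 UMIs of Epcam, Cdh1, Cldn6 and Cldn7 per 10000, which few UMIs reach at the E10.5 depth. In E10.5 posterior, 82 cells lay near the cut (1 to 4 per 10000), against 7 in E9.5 posterior. Summed epithelial markers (10 genes) ranged over 744 to 1550 CPM in the E9.5 libraries but only 19.7 to 474 CPM in the E10.5 libraries, with 8 of 10 at 0 in E10.5 anterior. Erythroid markers (9 genes) went the other way, from at most 152 CPM in the E9.5 libraries (lowest 34.3) to 1017 CPM or more in the E10.5 libraries (highest 5571). Cardiomyocyte markers (9 genes) reached 2995 CPM in E9.5 posterior and 66.1 to 732 CPM elsewhere.

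The promoters of 7 members are shown because they had large stage differences, in either direction, or form the lactate dehydrogenase pair. Each is the 250 bases before the RefSeq transcription start (GRCm38.p6), 5′ to 3′ on the gene's strand; for Egln1, whose GENCODE vM21 start lies further out, it is the 180 bases before that start. The Ldha window lies within the GENCODE gene model (chr7:46841475-46855627), in no annotated exon, and the other stretches lie outside the GENCODE exons. Capitals mark the core letters of the hypoxia response element, ACGTG or GCGTG, and their reverse complements CACGT and CACGC. The palindrome CACGTG holds ACGTG and CACGT, which overlap and count as 2 matches. Slc16a1, which encodes the lactate transporter MCT1, lies at chr3:104638414-104638663 (plus strand). Pdk1, a kinase that inhibits pyruvate dehydrogenase, lies at chr2:71872974-71873223 (plus strand). Adm, the gene of the vasodilator peptide adrenomedullin, lies at chr7:110627407-110627656 (plus strand). Ldha and Ldhb, which encode the 2 lactate dehydrogenase subunits compared here, lie at chr7:46845554-46845803 (plus strand) and chr6:142507958-142508207 (minus strand). Egln1, the oxygen-sensing prolyl hydroxylase PHD2, lies at chr8:124949325-124949504 (minus strand). P4ha1, a collagen prolyl hydroxylase subunit, lies at chr10:59323046-59323295 (plus strand).
Slc16a1: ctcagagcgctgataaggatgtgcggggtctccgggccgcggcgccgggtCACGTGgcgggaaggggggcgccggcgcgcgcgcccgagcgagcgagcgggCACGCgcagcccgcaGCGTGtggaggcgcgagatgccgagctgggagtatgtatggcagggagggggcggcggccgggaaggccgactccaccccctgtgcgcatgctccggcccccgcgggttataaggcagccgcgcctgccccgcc
Pdk1: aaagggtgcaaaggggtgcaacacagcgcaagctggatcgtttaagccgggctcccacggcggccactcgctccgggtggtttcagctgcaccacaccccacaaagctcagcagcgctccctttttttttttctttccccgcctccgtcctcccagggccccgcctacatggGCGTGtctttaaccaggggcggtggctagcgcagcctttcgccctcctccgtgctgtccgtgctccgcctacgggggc
Adm: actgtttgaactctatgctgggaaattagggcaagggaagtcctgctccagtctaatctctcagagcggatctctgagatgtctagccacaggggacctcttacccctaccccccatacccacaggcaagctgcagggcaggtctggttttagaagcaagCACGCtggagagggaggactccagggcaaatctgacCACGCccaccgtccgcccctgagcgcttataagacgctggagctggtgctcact
Ldha: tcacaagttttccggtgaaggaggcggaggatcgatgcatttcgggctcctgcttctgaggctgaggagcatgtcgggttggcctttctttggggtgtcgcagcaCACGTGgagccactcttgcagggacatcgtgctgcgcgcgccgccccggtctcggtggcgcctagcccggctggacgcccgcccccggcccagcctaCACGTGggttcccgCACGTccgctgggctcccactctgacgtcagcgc
Ldhb: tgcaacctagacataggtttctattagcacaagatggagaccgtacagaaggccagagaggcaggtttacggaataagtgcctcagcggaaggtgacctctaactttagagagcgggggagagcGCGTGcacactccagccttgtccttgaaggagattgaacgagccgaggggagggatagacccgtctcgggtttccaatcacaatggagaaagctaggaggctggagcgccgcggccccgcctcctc
Egln1: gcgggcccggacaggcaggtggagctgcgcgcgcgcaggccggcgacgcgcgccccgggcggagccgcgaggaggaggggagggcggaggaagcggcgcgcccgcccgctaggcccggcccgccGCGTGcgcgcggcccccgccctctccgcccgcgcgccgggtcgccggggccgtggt
P4ha1: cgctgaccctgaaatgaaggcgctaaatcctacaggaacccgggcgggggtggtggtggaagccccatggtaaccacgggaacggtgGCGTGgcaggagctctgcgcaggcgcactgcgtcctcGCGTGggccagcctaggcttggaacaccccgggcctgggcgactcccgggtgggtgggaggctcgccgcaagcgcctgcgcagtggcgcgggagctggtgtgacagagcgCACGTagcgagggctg

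In these stretches Slc16a1 held 4 matches, Pdk1 1, Adm 2, Ldha 5, Ldhb 1, Egln1 1 and P4ha1 3. A RefSeq window of 300 bases, 250 before and 50 after the start, was matched for 30 of the 32 members. Ero1l was matched under its newer symbol Ero1a, and where a gene had several windows the one nearest to the annotated gene start was used. A match occurred in 24 of the 30 windows (80.0%), against 14380 of 32851 windows in the whole table (43.8%). By group the count was 9 of 14 glycolytic enzymes, 5 of 5 glucose and lactate genes, and 10 of 11 hypoxia-response genes. The median GC content was 64.8% in the members' windows and 52.7% over all windows, and the part of base composition in the difference was not tested. Matches stood before genes that were higher at E10.5 (Egln1, P4ha1, Ldhb) and before genes that were lower (Slc16a1, Pdk1, Adm).

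The main comparison set E10.5 against E9.5 at each of the 3 positions taken at both stages. Each stage is 1 sample, so the ratios have no replicate check and no test; the intervals given are 95% counting intervals. By any size, 16 of 32 members were lower at E10.5 at all 3 positions and 6 were higher; 14 of the 16 were glycolytic enzymes or genes of glucose and lactate handling. Over all genes tested, 24.3% were lower and 21.5% higher at all 3 positions. The stricter rule asks that the counting interval lies on 1 side of 0 at all 3 positions. By it 13 members were lower and 4 higher, against 5.21% and 5.93% of all genes. Genes with more counts have narrower intervals and pass this rule at smaller ratios. The 13 lower members held from 816 counts (Slc16a1) to 79675 (Mif) over the libraries compared. The shares of all genes were not matched for counts, and the part of counts in the gap was not tested. A difference of at least 2-fold at all 3 positions was held by 1 member in each direction, Slc2a3 (lower) and Egln1 (higher), against 1.55% and 3.19% of all genes. The log2 folds below are E10.5 over E9.5, and group medians add 5 CPM to both levels. The median was -0.53 for the glycolytic enzymes, -1.04 for glucose and lactate handling and 0.19 for the hypoxia-response genes, against -0.09 for all 11013 genes.

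**Figure D1:**
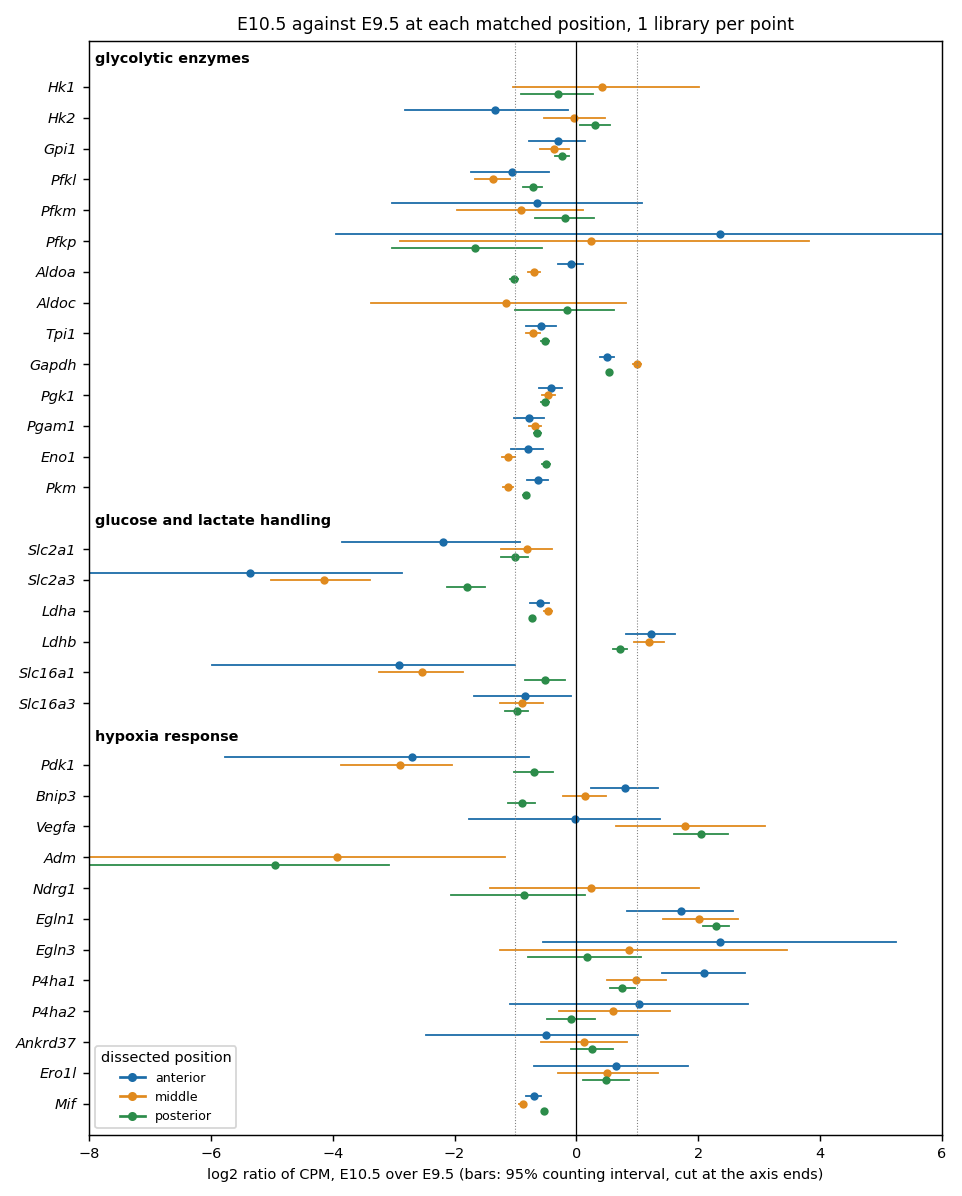
Log2 ratio of CPM, E10.5 over E9.5, for the 32 members (rows, by group) at the anterior, middle and posterior positions (colours); bars are 95% counting intervals and dotted lines mark 2-fold. Most glycolytic enzymes sit left of 0 at all 3 positions, with Gapdh to the right, and the hypoxia-response genes spread to both sides, from Adm and Pdk1 to Egln1.

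Among the glycolytic enzymes, 9 of 14 were lower at E10.5 at all 3 positions and 1, Gapdh, was higher. The opening steps are the hexokinases, which trap glucose as glucose 6-phosphate, and Gpi1, which isomerises it. Hk2, which had more counts than Hk1 in every library, read 59.4, 38.7 and 41.0 CPM in E9.5 anterior, middle and posterior and 23.6, 37.7 and 50.7 CPM at E10.5. It was thus lower in the anterior library (log2 -1.33), level in the middle (-0.04) and slightly higher in the posterior (0.31), with 6 counts behind the E10.5 anterior value. Hk1 stayed between 0 and 11.1 CPM in every library and had no count in E10.5 anterior. Gpi1 was lower at all 3 positions by little, with log2 folds of -0.30, -0.36 and -0.23.

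Phosphofructokinase commits sugar to glycolysis, and Pfkl, its liver-type subunit gene, had the largest mean log2 difference among the enzymes that were lower throughout; in the posterior Aldoa and Pkm differed more. Pfkl read 197, 200.4 and 195 CPM at E9.5 against 94.5, 77.4 and 118 CPM at E10.5. No E10.5 library reached the lowest E9.5 library, and the ratio was 2.08-fold lower in the anterior, 2.59-fold in the middle and 1.65-fold in the posterior. Pfkl held 85.7% to 97.0% of the phosphofructokinase UMIs in every library, beside the muscle-type Pfkm and the platelet-type Pfkp. Pfkm was lower at all 3 positions, with intervals that include 0 at each, and Pfkp had 1 to 3 counts in 4 of the 6 libraries.

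The middle steps split and oxidise the sugar. Aldoa, the aldolase of muscle and most embryonic tissue, was alike in the anterior libraries (1030 and 965 CPM) and 2.03-fold lower (1.94 to 2.13) in the posterior. Its symbol covers a pair of gene models in GENCODE vM21, which the counts do not separate. Aldoc, the brain aldolase, stayed at or below 8.48 CPM. Tpi1, triosephosphate isomerase, read 870, 855 and 852 CPM at E9.5 and 583, 524 and 597 CPM at E10.5, lower at every position by 1.43-fold to 1.63-fold.

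Gapdh, which oxidises glyceraldehyde 3-phosphate and sits in the middle of the same pathway, went the other way. It read 2156, 1660 and 1989 CPM in E9.5 anterior, middle and posterior, 2482 CPM in the outflow tract and 3044, 3296 and 2895 CPM in E10.5 anterior, middle and posterior. All E10.5 libraries were above all E9.5 libraries, by 1.41-fold (1.302 to 1.53), 1.99-fold (1.90 to 2.08) and 1.46-fold (1.42 to 1.49) at the matched positions. Gapdh has many processed pseudogene copies in the mouse genome, and how reads shared with copies were counted is not given in the sources used here; other members of this pathway have such copies as well.

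The payoff steps were lower. Pgk1, phosphoglycerate kinase, read 1303, 1038 and 877 CPM at E9.5 and 973, 755 and 616 CPM at E10.5, with log2 folds of -0.42, -0.46 and -0.51. Pgk1 lies on the X chromosome, and the X-inactivation transcript Xist was found in 1 of the 533 E9.5 cells but 903 of the 967 E10.5 cells, so the sex of the embryos and the stage cannot be told apart. Pgam1, phosphoglycerate mutase, had log2 folds of -0.77, -0.68 and -0.64. Eno1, enolase, was most different in the middle, at 1210 against 556 CPM. Pkm, pyruvate kinase, read 1768, 2006 and 1868 CPM at E9.5 and 1138, 921 and 1055 CPM at E10.5, so that all E10.5 libraries lay below all E9.5 libraries. Its log2 folds were -0.64, -1.12 and -0.82.

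Glucose and lactate handling had the lowest group median, with 5 of 6 genes lower at all 3 positions and Ldhb higher. Slc2a3, the high-affinity glucose transporter GLUT3 (chr6:122727809-122801640, minus strand), had the largest mean log2 difference of the 28 members with a ratio at all 3 positions, though Adm, which has no anterior ratio, differed more in the posterior. It read 161, 131 and 94.0 CPM in E9.5 anterior, middle and posterior, 35.6 CPM in the outflow tract and 3.94, 7.35 and 27.0 CPM in E10.5 anterior, middle and posterior. Every E10.5 library lay below the lowest E9.5 library. The level was 40.9-fold lower (7.27 to 1624) in the anterior library, which had 1 count at E10.5, 17.8-fold lower (10.52 to 32.3) in the middle and 3.49-fold lower (2.82 to 4.35) in the posterior. The share of cells with epithelial transcripts at E9.5 and E10.5 was 68.5% and 2.22% in the anterior, 34.4% and 6.95% in the middle, and 13.2% and 15.5% in the posterior. Fewer UMIs reach the cut at the E10.5 depth, and the summed epithelial markers of the posterior read 744 CPM at E9.5 and 474 CPM at E10.5. The part of these cells in the Slc2a3 difference was not tested. Slc2a1, the widespread glucose transporter GLUT1, read 90.2, 72.4 and 106 CPM at E9.5 and 19.7, 41.1 and 52.5 CPM at E10.5, lower by 4.58-fold, 1.76-fold and 2.02-fold.

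**Figure D2:**
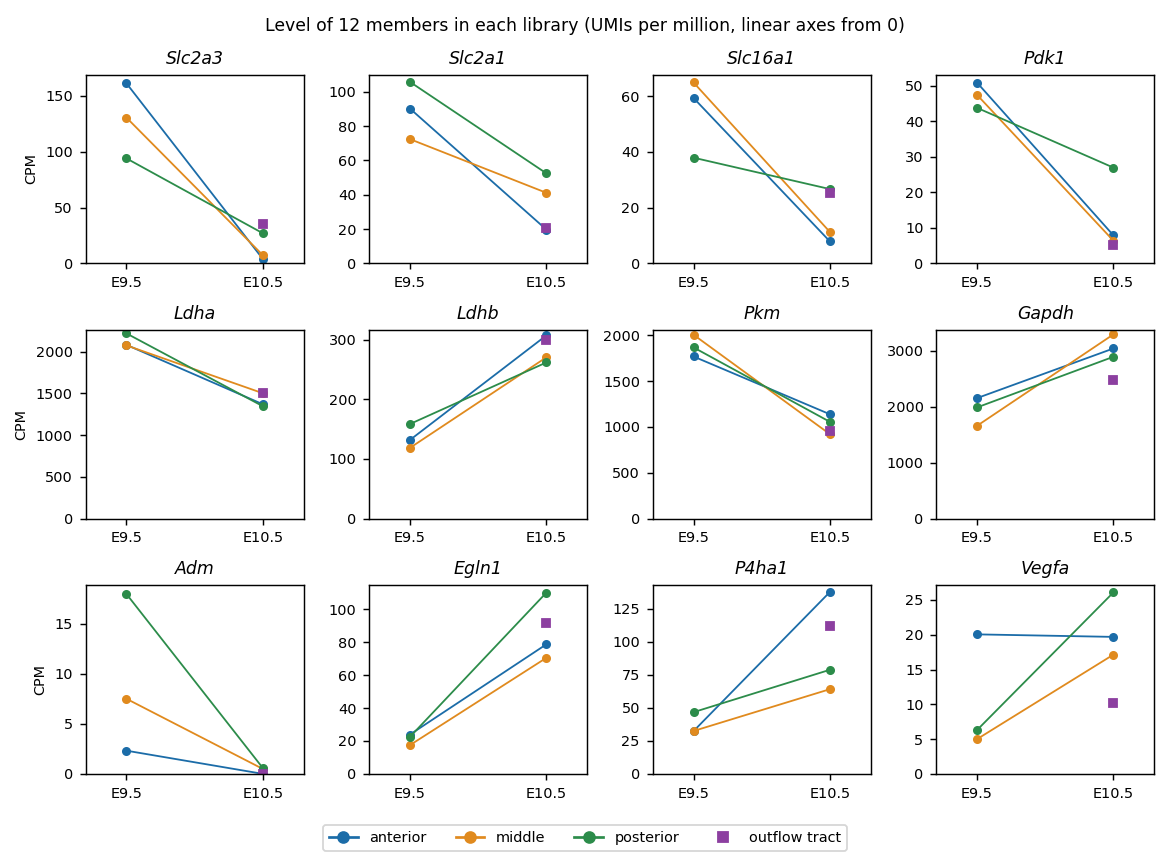
Level of 12 members in each library in CPM, on linear axes that start at 0; circles joined by lines are the anterior, middle and posterior libraries of E9.5 and E10.5, and squares are the E10.5 outflow tract. Slc2a3, Slc2a1, Slc16a1, Pdk1, Ldha and Pkm slope down from E9.5 to E10.5, and Ldhb, Gapdh, Egln1 and P4ha1 slope up.

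Ldha, the lactate dehydrogenase subunit that favours lactate formation, was lower at all 3 positions, at 2082, 2076 and 2219 CPM against 1370, 1502 and 1347 CPM. Ldhb, the subunit that favours lactate use, read 132, 119 and 159 CPM at E9.5, 300.1 CPM in the outflow tract and 307, 270.4 and 262 CPM at E10.5. All 4 E10.5 libraries were above all 3 E9.5 libraries, by 2.33-fold (1.76 to 3.06), 2.28-fold (1.93 to 2.70) and 1.65-fold (1.53 to 1.79) at the matched positions. The lactate transporters were both lower. Slc16a1 (MCT1) read 59.4, 64.9 and 37.9 CPM at E9.5 and 7.88, 11.3 and 26.7 CPM at E10.5, the difference being largest in the anterior (log2 -2.91, with 2 counts at E10.5) and least in the posterior (-0.51). Slc16a3 (MCT4), which exports lactate from strongly glycolytic cells, was more even, with log2 folds of -0.84, -0.90 and -0.98.

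The hypoxia-response genes did not move together: 2 of 12 were lower at all 3 positions, 4 were higher and the other 6 were mixed or had too few counts at 1 position. The 2 lower genes were Pdk1 and Mif. Pdk1 read 50.9, 47.5 and 43.8 CPM at E9.5, 5.09 CPM in the outflow tract and 7.88, 6.37 and 27.0 CPM at E10.5. The anterior and middle libraries were 6.46-fold (1.72 to 54.5) and 7.45-fold (4.11 to 14.6) lower, and the posterior 1.62-fold (1.304 to 2.04). Mif, macrophage migration inhibitory factor, had the most counts of any member over the 6 libraries, at 3617 to 4355 CPM in the E9.5 libraries and 1968 to 2712 CPM in the E10.5 libraries. Adm nearly disappeared from the posterior library, from 17.9 CPM (245 counts) to 0.58 CPM (2 counts), a 31.0-fold difference (8.48 to 257). In the middle it went from 12 counts to 1, and in the anterior from 3 counts to 0, where no ratio is given. Adm passed the minimum of 50 counts through its E9.5 libraries, since the 3 matched E10.5 libraries held 3 of its 263 counts.

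The 4 genes that were higher at all 3 positions were Egln1, P4ha1, Egln3 and Ero1l. Egln1 read 23.9, 17.5 and 22.5 CPM at E9.5, 91.6 CPM in the outflow tract and 78.8, 70.5 and 110 CPM at E10.5. The stages were well apart, and the ratio was alike at the 3 positions: 3.29-fold (1.78 to 5.97) in the anterior, 4.03-fold (2.68 to 6.28) in the middle and 4.90-fold (4.20 to 5.71) in the posterior. P4ha1 read 32.4, 32.5 and 46.7 CPM at E9.5, 112 CPM in the outflow tract and 138, 64.2 and 78.9 CPM at E10.5, again with no overlap. Egln3, the hydroxylase PHD3, stayed at or below 11.8 CPM, and its interval included 0 at each position. Ero1l, an oxidase that serves disulfide formation in the endoplasmic reticulum, was higher by log2 folds of 0.65, 0.51 and 0.49, with intervals that include 0 in the anterior and middle. Its outflow tract level, 10.2 CPM from 2 counts, lay below all 3 E9.5 libraries.

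Vegfa, the growth factor of vessels, read 20.1, 4.995 and 6.30 CPM in E9.5 anterior, middle and posterior and 19.7, 17.1 and 26.1 CPM at E10.5. The anterior ratio was -0.03 on the log2 scale, with 5 counts at E10.5 and an interval from -1.76 to 1.38, while the middle and posterior were 3.43-fold (1.56 to 8.56) and 4.14-fold (3.05 to 5.63) higher at E10.5. In E9.5 anterior the cells with epithelial transcripts held 22 of the 26 Vegfa counts, 2.45-fold the level of the other cells (0.83 to 9.78). Without the cells with epithelial transcripts the Vegfa log2 folds were 1.01, 2.03 and 2.07, with 4 counts left in E9.5 anterior. The anterior interval then ran from -1.20 to 3.35, and the difference between positions was not tested. Bnip3, a mitochondrial receptor for autophagy, was higher in the anterior (90.2 to 158 CPM), level in the middle (71.8 to 78.9 CPM) and lower in the posterior (107 to 57.4 CPM). Without the cells with epithelial transcripts its anterior libraries read 153 and 162 CPM, a log2 fold of 0.08 (-0.53 to 0.68), and its posterior fold was -0.90. P4ha2, the sister of P4ha1, had log2 folds of 1.03, 0.61 and -0.08, and Ankrd37 had -0.51, 0.12 and 0.26. Ndrg1, a stress-responsive gene, had no count in either anterior library.

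The pathway genes outside the 32 were counted from 2 further lists. Of 34 other glycolysis and pyruvate genes with at least 50 counts, 12 were lower and 5 higher at all 3 positions, with a median of -0.16. Of 35 genes of oxygen sensing and further hypoxia response, 13 were lower and 7 higher, with a median of -0.25. Only Cited2 and Mycn of these passed 2-fold at all 3 positions, both lower at E10.5. Cited2, which competes with hypoxia-inducible factor for its coactivators, read 282, 121 and 139 CPM at E9.5 and 78.8, 55.8 and 54.8 CPM at E10.5. Mycn, a growth regulator of progenitor cells, read 107, 185 and 159 CPM at E9.5 and 27.6, 82.8 and 54.8 CPM at E10.5. Among 10 immediate early and heat shock genes, which mark handling of cells, 5 were lower and 2 higher. Their sum of 12 genes ranged over 2216 to 2525 CPM in the E9.5 libraries, above the 1000.2 to 1644 CPM of the E10.5 libraries, and their part in the stage differences was not tested.

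Shares within pairs of related genes show the stage difference without the library total. Counts of different genes are not compared for level here, since capture differs by gene; the shift of a share between libraries is what is read. Ldhb held 5.96%, 5.41% and 6.67% of the Ldha and Ldhb UMIs in E9.5 anterior, middle and posterior, 16.7% in the outflow tract and 18.3%, 15.3% and 16.3% in E10.5 anterior, middle and posterior. The intervals of the E10.5 libraries, the lowest of which began at 12.9%, lay wholly above those of the E9.5 libraries, the highest of which ended at 6.95%. Slc2a3 held 64.1%, 64.3% and 47.0% of the Slc2a1 and Slc2a3 UMIs at E9.5 and 16.7%, 15.2% and 33.9% at E10.5. In the outflow tract it held 63.6%, of 11 UMIs. Its mean shift over the 3 positions was -36.6 percentage points, and -6.56 without the cells with epithelial transcripts. P4ha2 held 19.2%, 24.6% and 30.9% of the P4ha1 and P4ha2 UMIs at E9.5. At E10.5 it held 10.3%, 20.1% and, in the posterior, 68 of 340 UMIs, with overlapping intervals in the anterior and middle.

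**Figure D3:**
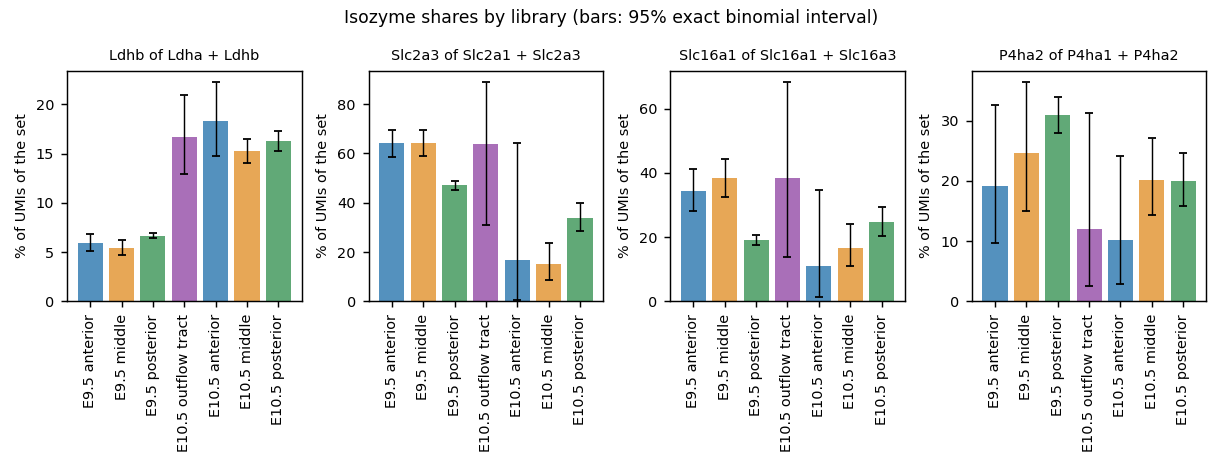
Percent of the UMIs of a gene pair held by the named gene in each of the 7 libraries, as bars that start at 0, with 95% exact binomial intervals. The Ldhb share sits between 5.41% and 6.67% at E9.5 and between 15.3% and 18.3% at E10.5, while the transporter shares have wide intervals in the small E10.5 libraries.

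Slc2a3 was mainly a transcript of the cells with epithelial transcripts. In E9.5 posterior it read 646 CPM in these 55 cells and 16.6 CPM in the 363 other cells, 38.9-fold apart (33.4 to 45.4). In E10.5 posterior it read 114 CPM in 87 cells and 8.43 CPM in 473 other cells, 13.6-fold apart (8.41 to 22.6). The ratio was 6.71 in E9.5 anterior, 34.6 in E9.5 middle and 7.39 in E10.5 middle; the outflow tract and E10.5 anterior had too few such cells. After each cell was thinned to 4500 UMIs, a Slc2a3 UMI was held in E9.5 posterior by 43 of 50 cells with epithelial transcripts (86.0%) but by only 21 of 360 other cells (5.83%). In E10.5 posterior these were 19 of 69 (27.5%) and 15 of 402 (3.73%). Before thinning the shares were 96.4% and 24.2% at E9.5 (median depths 31188 and 31266 UMIs), and 31.0% and 4.23% at E10.5 (5630 and 5358 UMIs).

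Of all members, 1 (Slc2a3) was at least 2-fold higher in the cells with epithelial transcripts in all 5 libraries compared, against 0.962% of all genes, and none was 2-fold lower in all 5 (0.327%). By any size, Slc2a3 and Slc2a1 were higher in all 5 (6.17% of genes) and Eno1, Aldoa and P4ha1 were lower (8.81%). Slc2a1 was higher by 1.56-fold to 2.62-fold. P4ha1 was at 0.442 to 0.960 of its level in the other cells, and Adm, with 241 of its 245 counts in E9.5 posterior in the other cells, was 8.44-fold lower (3.26 to 31.2) there.

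**Figure D4:**
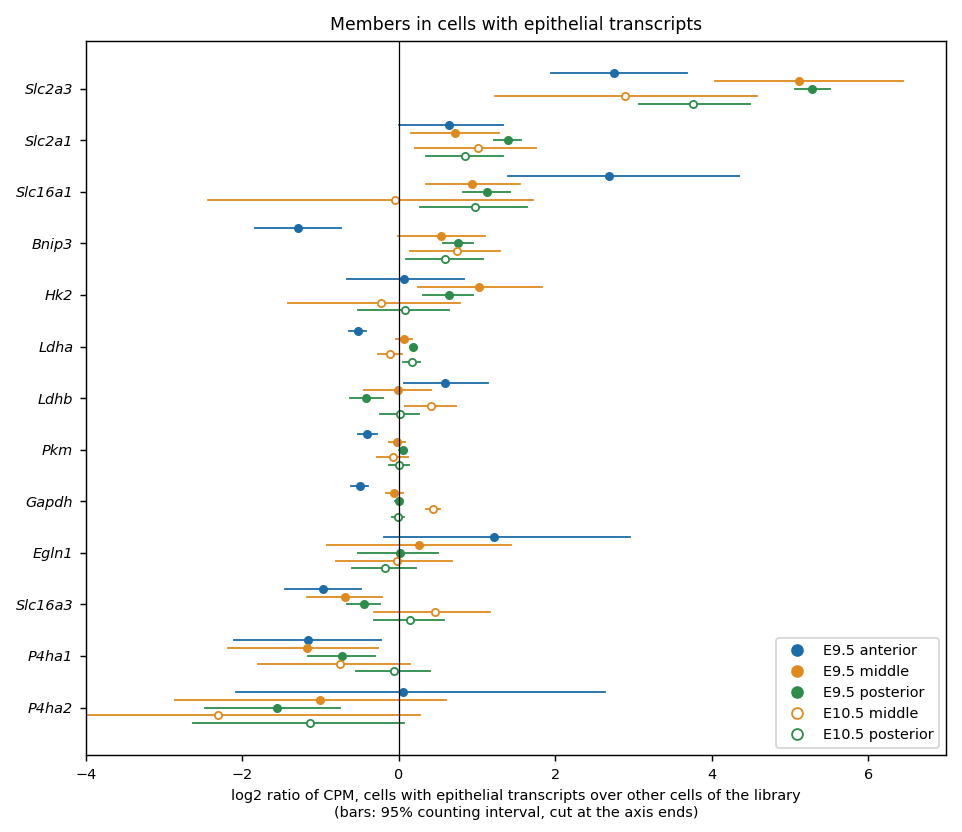
Log2 ratio of CPM in cells with epithelial transcripts over the other cells of the same library, for 13 members in 5 libraries (filled, E9.5; open, E10.5); bars are 95% counting intervals. Slc2a3 lies far to the right of 0 in all 5 libraries, and Slc16a1 also lies to the right in 4 of them.

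Within each class of cells, as set by the cut, Slc2a3 was lower at E10.5 in the middle and posterior. The classes may differ between the depths: 19 middle and 82 posterior cells lay near the cut at E10.5, against 0 and 7 at E9.5. Their part in the ratios was not tested. Among cells with epithelial transcripts Slc2a3 was 9.48-fold lower (4.72 to 22.2) in the middle and 5.65-fold lower (4.43 to 7.32) in the posterior. Among the other cells of the posterior it was 1.97-fold lower (1.29 to 3.15), and in the middle, with 7 counts at each stage, 2.03-fold lower with an interval from 0.61 to 6.77. Without the cells with epithelial transcripts the Slc2a3 log2 folds were -3.01, -1.02 and -0.98 in anterior, middle and posterior. Slc2a3 was thus no longer 2-fold lower at all 3 positions. Its anterior interval ran from -8.42 to -0.27, with 13 counts left in E9.5 anterior. Slc16a1 then had -0.63, -2.02 and -0.54, with 5 counts left in E9.5 anterior and an anterior interval from -4.02 to 1.98. The 1 member that was then 2-fold lower at all 3 positions was Slc16a3, with -1.49, -1.24 and -1.05, against 1.54% of all genes. Egln1 kept its difference, at 2.69, 2.14 and 2.32. Vegfa also passed 2-fold by its ratios, at 1.01, 2.03 and 2.07, with an anterior interval from -1.20 to 3.35. Over all genes 2.91% were then 2-fold higher at all 3 positions. Ldhb had 1.67, 1.12 and 0.68, and Gapdh 0.18, 0.90 and 0.54, so the anterior Gapdh difference was smaller.

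By the median cell of each library, each group summed to a smaller share of UMIs at E10.5. For the hypoxia-response genes this differs from the group median of the single-gene folds, which was 0.19. The 14 glycolytic enzymes together took a median of 0.938%, 0.908% and 0.941% of a cell's UMIs in E9.5 anterior, middle and posterior, 0.661% in the outflow tract and 0.759%, 0.727% and 0.743% at E10.5. Glucose and lactate handling took 0.245% to 0.256% in the E9.5 libraries, against 0.161% to 0.179% in the later ones, and the hypoxia-response genes, most of whose UMIs were Mif, took 0.386% to 0.479% and 0.228% to 0.312%. The spread among cells was wide, with middle quartiles of 0.753% to 1.12% for the glycolytic enzymes in E9.5 posterior and 0.608% to 0.873% in E10.5 posterior.

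Shares of cells with a UMI were compared after thinning to 4500 UMIs per cell. Egln1 was counted in 33 of 410 posterior cells at E9.5 (8.05%) and 180 of 471 at E10.5 (38.2%). Ldhb was counted in 51.2% and 65.8% of the same cells. Pdk1 was counted in 19.8% and 11.9%. In the middle libraries Pdk1 was counted in 19.7% of the 61 younger cells and 3.09% of the 291 older cells. Adm was counted in 6.59% of E9.5 posterior cells and in 2 of 471 E10.5 posterior cells (0.425%).

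Differences between positions were tested with the stage samples as the only replicates and a stage term in the fit. The p-values thus weigh the position difference shared by these 2 samples against how far position differences disagree between them. The spread of each gene was moderated by that of all genes. In edgeR's quasi-likelihood fit over 6 libraries, 29 members passed the filter on low counts and Pfkp, Ndrg1 and Egln3 did not. None of the 29 was called at an adjusted p under 0.05 in posterior against anterior, posterior against middle or middle against anterior. Over all 9825 genes tested, 0.295%, 0.193% and 0% were called, so few genes of any kind passed. At an unadjusted p under 0.05 there were 2, 1 and 1 members, against 6.05%, 3.86% and 3.51% of all genes. The median log2 fold of the 29 members was -0.06, 0.20 and -0.15 in these contrasts, against 0.02, 0.04 and -0.01 for all genes.

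The 4 member results at an unadjusted p under 0.05 were Pgk1, Adm, Slc16a3 and Vegfa. Pgk1 was lower in the posterior than in the anterior at both stages (log2 -0.57 at E9.5 and -0.66 at E10.5), and the fit gave -0.71 ± 0.21 (SE; adjusted p = 0.476, edgeR). Adm in the posterior against the anterior gave 2.81 ± 0.85 (adjusted p = 0.488, edgeR) and rests on E9.5, where it read 2.31 and 17.9 CPM. Slc16a3 was higher in the posterior than in the middle at both stages (0.62 and 0.54), and the fit gave 0.50 ± 0.22 (adjusted p = 0.997, edgeR). Vegfa was lower in the middle than in the anterior, with a fit of -1.35 ± 0.56 (adjusted p = 1, edgeR) that rests on E9.5 (-2.01) more than on E10.5 (-0.20).

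The intervals of the fit differed in width and place among the enzymes. In posterior against anterior the 95% interval of the log2 fold was -0.60 to 0.38 for Pkm, -0.54 to 0.43 for Ldha, -0.72 to 0.34 for Gapdh and -0.56 to 0.38 for Tpi1, none of which reaches 2-fold. For Aldoa it was -1.01 to 0.17 and for Pgk1 -1.18 to -0.24, so a 2-fold lower level in the posterior lies within both. Of the transporters, Slc2a3 had -1.37 to 1.13 and Slc16a1 -1.21 to 1.12, so a 2-fold difference in either direction lies within the interval. These wide intervals go with opposite directions at the 2 stages. Slc2a3 in the posterior was lower than in the middle at E9.5 (log2 -0.47, -0.69 to -0.26) and higher at E10.5 (1.88, 1.08 to 2.77). Pdk1 was level between posterior and middle at E9.5 (-0.12, -0.46 to 0.25) and higher in the posterior at E10.5 (2.08, 1.24 to 3.04). The share of cells with epithelial transcripts was 34.4% in the middle and 13.2% in the posterior at E9.5, and 6.95% and 15.5% at E10.5; its part in the position results was not tested.

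**Figure D5:**
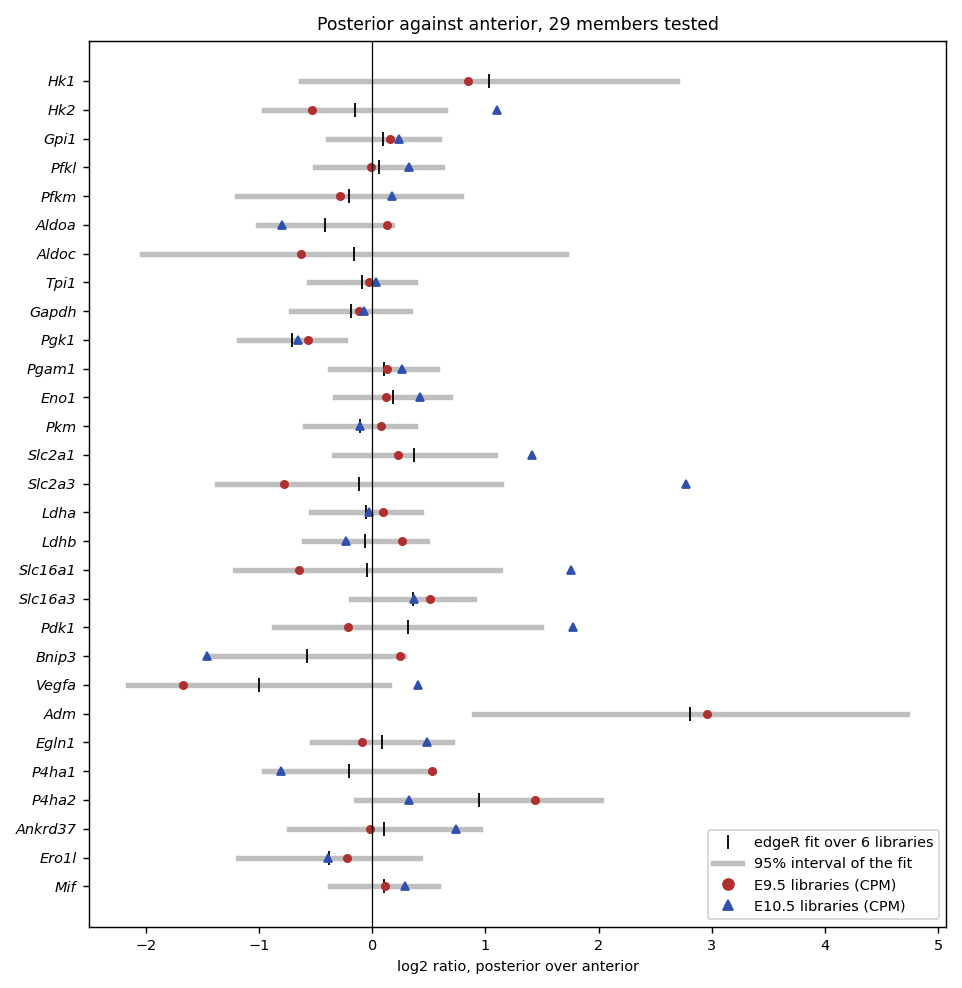
Log2 ratio, posterior over anterior, of the 29 members tested: the edgeR estimate over 6 libraries (tick), its 95% interval (grey bar) and the CPM ratio within each stage (circles, E9.5; triangles, E10.5). No member was called; the stages lie far apart for Slc2a3, Slc16a1, Pdk1 and Bnip3, and close together for Pgk1, Pkm, Ldha and Gapdh.

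The outflow tract was taken at E10.5 only, as 31 cells with 196599 UMIs, and was set beside the other E10.5 libraries with no test. Against the anterior library 2 members were at least 2-fold higher (Slc2a3 and Slc16a1; 11.8% of all genes) and 4 were at least 2-fold lower (Pfkm, Bnip3, Ankrd37 and Ero1l; 7.54%). Of the latter, Pfkm and Ankrd37 had 1 count and Ero1l 2 counts in the outflow tract, under its floor of 3 counts (15.3 CPM), which leaves Bnip3. The higher members lay under the floor of the anterior library (11.8 CPM), with 1 count there for Slc2a3 and 2 for Slc16a1. Against the middle these were 4 and 2 members (12.8% and 5.73% of genes), and against the posterior 1 and 6 (6.92% and 10.1%). Slc2a3 in the outflow tract had 7 counts, which set it 4.85-fold above the middle library (1.67 to 12.6). Bnip3 was 56.0 CPM in the outflow tract against 158 CPM in the anterior, 2.82-fold lower (1.42 to 6.08). Pgam1 was higher in the outflow tract (890 CPM) than in the other 3 E10.5 libraries (614 to 738 CPM), and Gapdh was lower, each with counting intervals on 1 side of 0. Among the E10.5 libraries the outflow tract thus had the lowest Gapdh and Mif levels and, at 5.09 CPM from 1 count, the lowest Pdk1 value.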

How the data were processed

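Second heart field cells of wild-type embryos were profiled by droplet single-cell RNA sequencing in 2 samples, 1 per stage. Per the labels, reads were aligned to mm10; the submitters' processing notes name Cell Ranger 3.0 and Seurat. The authors deposited raw UMI counts per gene and cell, in 1 matrix per stage, and per the labels the barcode suffix gives the dissected position. Neither the gene annotation nor the rule that made the cells Osr1 positive is stated in these sources. The members and all gene lists were chosen with earlier results of these data known.

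No cell was removed. Counts were summed per library (stage and position), and CPM, a gene's UMIs per 1000000 UMIs, were taken on library totals over all genes of the stage's matrix. Stage ratios carry exact conditional Poisson intervals (Clopper-Pearson, 95%) and no test, since each stage is 1 sample. Such intervals cover counting error only. No ratio is given against a library at 0; for Hk1, Aldoc, Adm and Ndrg1 in the anterior, the E9.5 level also lay at or below what 3 counts amount to in the E10.5 library. For the position contrasts, edgeR 4.0.16 (R 4.3.3; TMM, filterByExpr, glmQLFit, glmQLFTest) fitted position and stage over 6 libraries, with 2 residual degrees of freedom, and Benjamini-Hochberg adjustment ran over 9825 genes. The stage term is the replicate block: same-stage libraries come from 1 sample. The script was tested on simulated data. DESeq2 1.42.0 and limma 3.58.1 were alternatives. Cells with a summed Epcam, Cdh1, Cldn6 and Cldn7 count of 2 or more per 10000 UMIs are called cells with epithelial transcripts; this is a range of a score, not a cell type. Shares of cells were compared after each cell was thinned to 4500 UMIs. Scrublet (scanpy 1.11.5) marked 31 of 54, 17 of 31 and 44 of 45 cells in the libraries under 60 cells, where it was not used, and 2 to 7 cells in each of the others; an alternative leaves those out. All 32 members are accounted for; genes of the further lists are named only at 2-fold or more in 1 direction at all 3 positions.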

Additional observations from a re-analysis of the deposited data

Results flagged for a closer look

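Several members changed direction between the stages when the same positions were compared. They are listed where the counting intervals lay on opposite sides of 0 and both log2 ratios exceeded 0.28, the size of the spread between libraries in the edgeR fit. Each ratio compares 1 library with 1 library, and the difference between the stages was not tested.

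Slc2a3, the glucose transporter GLUT3, had a posterior over anterior log2 ratio of -0.78 at E9.5 but 2.78 at E10.5, the latter against 1 count. Over the middle library, its posterior ratio went from -0.47 to 1.88 between the stages. Among the cells without epithelial transcripts, Slc2a3 read 16.6 CPM in the posterior and 8.02 CPM in the middle of E9.5, and 8.43 and 3.96 CPM in E10.5. Each of these middle values rests on 7 counts, and the ratios were not tested. Slc16a1, a lactate transporter, changed direction as well, with posterior over middle ratios of -0.78 and 1.24. For both genes the library with the larger share of cells with epithelial transcripts had the higher level, and the part of those cells was not tested. Without those cells Slc16a1 read 33.2 CPM in the posterior and 45.8 CPM in the middle of E9.5, and 22.8 and 11.3 CPM in E10.5. These middle values rest on 40 and 20 counts. No interval was taken for these position ratios, so a change of direction by the rule above is not shown. P4ha1, a collagen prolyl hydroxylase subunit, had posterior over anterior ratios of 0.53 at E9.5 and -0.81 at E10.5. Without the cells with epithelial transcripts it read 49.1 CPM in the posterior and 52.6 CPM in the anterior of E9.5, and 79.4 and 138 CPM at E10.5. The E9.5 anterior value rests on 21 counts from 17 cells, too few to fix a direction between such close levels. Eno1 had small posterior over middle ratios of -0.29 and 0.33. Bnip3 had posterior over middle ratios of 0.57 at E9.5 and -0.46 at E10.5.

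A pair of members had stage ratios (E10.5 over E9.5) of opposite sign at different positions. Hk2 had log2 ratios of -1.33 in the anterior, -0.038 in the middle and 0.31 in the posterior. Bnip3 had 0.80, 0.14 and -0.90, and 0.08 (-0.53 to 0.68), 0.28 and -0.90 without the cells with epithelial transcripts, so the anterior interval then included 0. Neither difference between positions was tested.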

How the results depend on the processing

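The stage counts by any size (16 members lower, 6 higher; among the glycolytic enzymes 9 and 1) stayed within 1.5 times under TMM scaling, totals without mitochondrial and haemoglobin genes, per-cell means, thinning, the doublet filter and the removal of cells with epithelial transcripts; without the posterior position 2 enzymes, not 1, were higher. Members at least 2-fold lower at the positions left numbered 2 to 4 with 1 position left out, against 1 (Slc2a3). Adm joined without the anterior, Slc2a1 without the middle, and Slc16a1, Pdk1 and Pfkl without the posterior. Over all genes the share rose as well, from 1.55% to 3.74%, 2.2% and 6.28% without the anterior, middle and posterior. Members 2-fold higher numbered 1 to 2, against 1 (Egln1): Vegfa joined without the anterior and Ldhb without the posterior. The share of all genes that were 2-fold higher rose from 3.19% to 5.04%, 4.58% and 5.54% in the same order. Without cells with epithelial transcripts 2 members were 2-fold higher (Egln1 and Vegfa), against 2.91% of all genes. The Slc2a3 share of transporter UMIs then moved by -6.56 points in place of -36.6, and the Slc16a3 share by -0.45 in place of 13.1. The glycolytic median of -0.53 became -0.59 without those cells, -0.60 with 1 CPM added, -0.36 with 20 CPM added and -0.43 to -0.57 with 1 position left out. The hypoxia-response median of 0.19 became 0.14 to 0.46 with 1 position left out, 0.46 without the posterior.

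The counts of genes called by position depended on the test. In posterior against anterior (29 genes) DESeq2 called 45, limma 12, the fit with no filter 260, thinned cells 19, and fits with 1 library left out 92 to 332. In posterior against middle (19 genes) these were 33, 3, 178, 12 and 37 to 307, and 36 without cells with epithelial transcripts. In middle against anterior (0 genes) DESeq2 called 4, no filter gave 64, removal of those cells 6, and 1 library left out 14 to 123. The fit with no replicate block, that is without the stage term, called 0 genes in posterior against anterior and 0 in posterior against middle. No member was called in these alternatives except with 1 library left out, where 0 to 2, 0 to 2 and 0 to 1 members were called. Without E9.5 posterior, Bnip3 (-1.35) and Slc2a3 were called in posterior against anterior, where Slc2a3 turned from -0.12 to 1.60 (range -0.81 to 2.25 with each library left out in turn, 0.34 with DESeq2 and 0.55 with limma), and Slc2a3 (1.88) and Pdk1 (1.92) in posterior against middle. Vegfa (-2.11) was called in middle against anterior without E10.5 anterior. Of 1206 values of the 87 member results under the alternatives, 146 changed sign with no call in either fit, in 56 results, so the direction of an uncalled position difference is not fixed. The cause was not tested; a fit without 1 library leaves a position with 1 sample, assumed to vary like the others.

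Each stage is 1 sample of unstated embryo number, so stage cannot be told apart from batch, depth or sex. At E10.5 the anterior library held 253936 UMIs, where 0 counts allow a level of up to 11.8 CPM.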

Other observations

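Among the cells with epithelial transcripts, the E10.5 over E9.5 ratios of Ldhb and Gapdh went the same way as in the other cells of the same libraries. In the middle Ldhb was 2.91-fold higher in the cells with epithelial transcripts and 2.17-fold higher in the other cells, and in the posterior 2.15-fold and 1.60-fold. Gapdh was 2.63-fold and 1.86-fold higher in the middle, and 1.45-fold and 1.46-fold in the posterior. Egln1 was 3.62-fold and 4.41-fold higher in the middle, and 4.39-fold and 5.01-fold in the posterior. Adm had no count in the E10.5 cells with epithelial transcripts at either position.

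In E9.5 anterior, where 37 of 54 cells carried epithelial transcripts, these cells spent a median of 0.858% of their UMIs on the 14 glycolytic enzymes, and the other 17 cells 1.20%. In E9.5 posterior the order was the reverse, at 1.04% and 0.918%. These are values of single libraries, and the difference was not tested.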
